A study of Mus musculus with 10 samples.

Results

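Rgs16 (rgs16 in the files) encodes a regulator of G protein signalling. It was described here as 1 gene of the 14812 gene entries in the count tables of mouse hepatocytes, followed across 4 times of day, across the liver lobule and from cell to cell. The gene was chosen by its level at ZT12 and ZT0, that is by a difference between times of day in these same libraries, so its levels over time are given below as a description with no test. The study asked how gene expression in single hepatocytes varies over the day and over the lobule. It used 10 droplet libraries from male C57BL/6 mice aged 3 months that ate regular chow freely. All groups shared the strain, the ketamine and xylazine anaesthesia, and hepatocytes freed with collagenase and cleaned on Percoll, and no allele or drug differed between them. Zeitgeber time (ZT) counts hours from lights on, and there were 3 libraries at ZT0 (A, B and C), 2 at ZT6 (A and B), 3 at ZT12 (A, B and C) and 2 at ZT18 (A and B), made with version 2 of the 10x 3′ kit.

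An activated receptor of the G protein-coupled class makes the G alpha subunit exchange GDP for GTP, and RGS proteins end that signal by speeding the hydrolysis of GTP on alpha subunits of the Gi and Gq classes. In hepatocytes such receptors carry signals of catecholamines, vasopressin, nucleotides and adenosine, which act on glucose output and fat oxidation. In mouse liver Rgs16 has been known for a rise late in the daytime fast, for expression in periportal hepatocytes and as a target of the carbohydrate-sensing factor ChREBP.

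Rgs16 (ENSMUSG00000026475.7) lies on chromosome 1 from 153740349 to 153745468 on the plus strand in GENCODE M21 (build GRCm38, which corresponds to mm10 in the submitters' processing notes). That annotation gives 1 protein-coding transcript with 5 exons, 603 coding bases and 2339 exonic bases. In the RefSeq table of GRCm38.p6 the gene starts at 153740353. The nearest of the other RGS genes listed here is Rgs8, which ends 42683 bases before Rgs16. The protein-coding gene Rgsl1 lies nearer, 32460 bases after Rgs16, and has no entry in the count tables. The stretch before the transcript start is shown because the time-of-day pattern raises the question of which clock or metabolic motifs stand there. It runs over chr1:153740103-153740348 on the plus strand, comes from the RefSeq promoter table of GRCm38.p6, and has capitals on the motif matches named after it.
Rgs16 promoter: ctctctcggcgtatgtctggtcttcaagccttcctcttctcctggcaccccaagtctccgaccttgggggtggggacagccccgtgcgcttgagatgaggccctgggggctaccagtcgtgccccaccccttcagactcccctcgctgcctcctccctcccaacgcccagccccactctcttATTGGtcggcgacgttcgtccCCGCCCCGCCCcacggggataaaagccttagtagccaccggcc
The search covered both strands of the whole 300-base window, from 250 bases before to 50 after the RefSeq start. The capitals ATTGG are a CCAAT box (letters CCAAT) read on the opposite strand, 68 bases before the RefSeq start. The longer run of capitals holds 2 matches to the GC box (letters GGGCGG) on the opposite strand, 47 and 42 bases before it, which share 1 base. Of 32851 promoter windows, 37.4% held a CCAAT box and 35.7% a GC box, so both are common letters. The window held no match to the E-box CACGTG bound by the clock proteins CLOCK and BMAL1 (7.15% of windows), the D-box TTATGNAA of the DBP family (3.39%), the nuclear receptor half-site AGGTCA (16.3%), the cyclic AMP response element TGACGTCA (1.79%), its half-site TGACG (20.8%) or the letters TATAAA (13.6%). These are counts of letters in 1 window.

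The tables held 18378 cells, 710 to 2860 per library, with 1454623 to 7144803 unique molecular identifiers (UMIs, 1 per captured RNA molecule) per library and medians of 1588 to 2662 UMIs per cell. Cell names are running numbers without barcodes, so shared barcodes could not be counted, and 0 cells had identical counts in any 2 libraries. Alb was counted in 99.7% to 100% of cells in each library. In the marker lists for other cell types, Clec4g of sinusoidal endothelium and Clec4f and Csf1r of macrophages were at 0 in all 10 libraries. So were Cd3e, Cd79a, Cd79b and Nkg7 of lymphocytes. Sox9 of the cholangiocyte (bile duct) list reached 32.3 UMIs per 1000000 (CPM), whereas Epcam, Krt19 and Krt7 of that list reached 0.203, 0.688 and 0.502 CPM. Pecam1 of endothelium reached 9.79 CPM, Stab2 5.08 and Kdr 2.96. Cd5l, Vsig4 and Marco of macrophages reached 3.665, 2.27 and 1.02 CPM, and Cd3g of lymphocytes 0.314 CPM. In the stellate list Dcn reached 8.10 CPM, and in the neutrophil list S100a8 reached 5.18 and S100a9 2.52 CPM. The summed neutrophil and cycling lists were highest in ZT12B, at 7.84 and 10.5 CPM, and their part in the results was not tested. In the erythroid list, Alas2, which hepatocytes also express, reached 107 CPM, Hba-a1 61.2 and Hbb-bt 29.6 CPM. The summed erythroid list was at 158 CPM in ZT18B and 71.5 to 107 CPM in the other libraries, and its part in the results was not tested. The summed cholangiocyte list, which is mostly Sox9, ran from 17.4 to 32.5 CPM at ZT0 and 0.773 to 4.27 at ZT6. It ran from 3.44 to 6.53 at ZT12 and 11.6 to 17.3 at ZT18. The part of these levels in the results was not tested. Xist, which is transcribed in female cells, was at 36.8 CPM in 64 cells of the library labelled ZT18A, against the label of male mice. It was at 0 to 0.169 CPM in the others. The Rgs16 level and zone difference of ZT18 are therefore also given without ZT18A, whereas ZT18 means of other genes include it. Library B stood apart from A and C at ZT0 and at ZT12 for Rgs16. These B libraries and both ZT6 libraries carry the number 7 in the name of their 10x sample index on the label, the A libraries of ZT0 and ZT12 carry 3, their C libraries carry 5, and both ZT18 libraries carry 4.

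Rgs16 was highest at ZT12, lower at ZT6, and low at ZT0 and ZT18. At ZT12 it stood at 115 CPM in library A, 33.2 in B and 130 in C, from 167, 237 and 258 UMIs. At ZT6 it was at 26.0 CPM in A and 29.4 in B, from 128 and 76 UMIs. Libraries A and C of ZT12 lay above every other library, and library B of ZT12 lay close to the ZT6 pair. Libraries A and C of ZT12 also had the lowest summed levels of the hepatocyte marker list, 30600 and 42560 CPM against 48680 to 61650 in the other 8. Their median mitochondrial shares per cell were the highest and the lowest, 24.7% and 11.97% against 14.1% to 21.6%. The part of these measures in the result was not tested. At ZT0 the level was 1.75 CPM in A, 12.04 in B and 2.19 in C, from 10, 81 and 13 UMIs. At ZT18 it was 6.29 CPM in A and 1.62 in B, from 20 and 6 UMIs. The ZT0 and ZT18 libraries overlapped, and all 5 lay below both ZT6 libraries, which in turn lay below all 3 ZT12 libraries.

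The ZT0 libraries averaged 5.33 ± 5.82 CPM (SD, n = 3), the ZT6 libraries 27.7 ± 2.37 (n = 2), the ZT12 libraries 92.5 ± 51.9 (n = 3) and the ZT18 libraries 3.95 ± 3.30 (n = 2). The order of the means was ZT12, ZT6, ZT0 and ZT18, and ZT0 and ZT18 did not differ beyond their spread. Counting error does not bridge the gap within ZT12: the exact 95% Poisson interval was 98.1 to 134 CPM in A, 29.1 to 37.7 in B and 114 to 146 in C. Such intervals cover counting error only. Without library A, the single remaining ZT18 library was at 1.62 CPM. Nothing on the labels says whether libraries of 1 time came from separate mice. Summed counts cannot tell fewer transcribing cells from less RNA per cell.

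**Figure D1:**
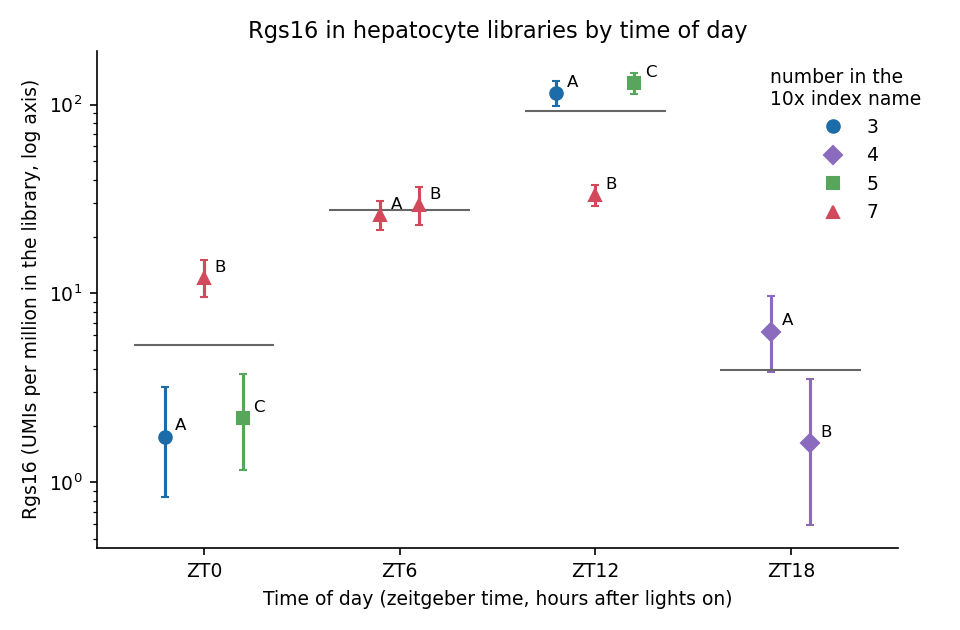
Rgs16 in CPM (log axis) in each of the 10 libraries by time of day, with exact 95% Poisson intervals as bars, the letter of each library beside its point, the number in the 10x index name as colour and shape, and the group mean as a grey line. Libraries A and C of ZT12 sit at 115 and 130 CPM, library B of ZT12 at 33.2 CPM near the ZT6 pair, and library B of ZT0 at 12.04 CPM above the rest of its group.

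The ratio of ZT12 to ZT0 differed in size between index numbers. It is given as a description, since the gene was chosen by these levels. The ratio of the group means was 17.4. Within index number 3 it was 65.8 (ZT12A over ZT0A) and within number 5 it was 59.0 (ZT12C over ZT0C), whereas within number 7 it was 2.76 (ZT12B over ZT0B). The 4 libraries of number 7 thus ran 12.04 CPM at ZT0, 26.0 and 29.4 at ZT6 and 33.2 at ZT12. With both number 7 libraries of ZT0 and ZT12 left out, a choice made after seeing the data, the means were 1.97 CPM at ZT0 and 122 at ZT12. The index number and anything prepared with it cannot be told apart, and its part in the result was not tested.

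The ratio of library B to libraries A and C lay outside the range of the clock genes for Rgs16 at both times. In the B library of ZT12, Rgs16 was at 0.272 times the mean of A and C, and in the B library of ZT0 at 6.11 times. Dbp, a transcription factor that relays the clock to liver genes, stood at 1.53 and 0.919 times at those times, Tef of the same family at 1.12 and 1.30, and Nr1d2, a repressor of the clock loop, at 0.844 and 1.21. Ciart, a clock repressor that tracked Rgs16 closely, was at 0.4995 times in B at ZT12 but at under 1 CPM in all 3 ZT0 libraries. Over the 16 clock genes with both ratios the ZT12 ratio ran from 0.453 for Cry1 to 1.53 for Dbp and the ZT0 ratio from 0.355 for Per2 to 1.76 for Cry2. Rgs3, another RGS gene, was higher in B at both times, at 6.77 and 5.83 times.

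**Figure D2:**
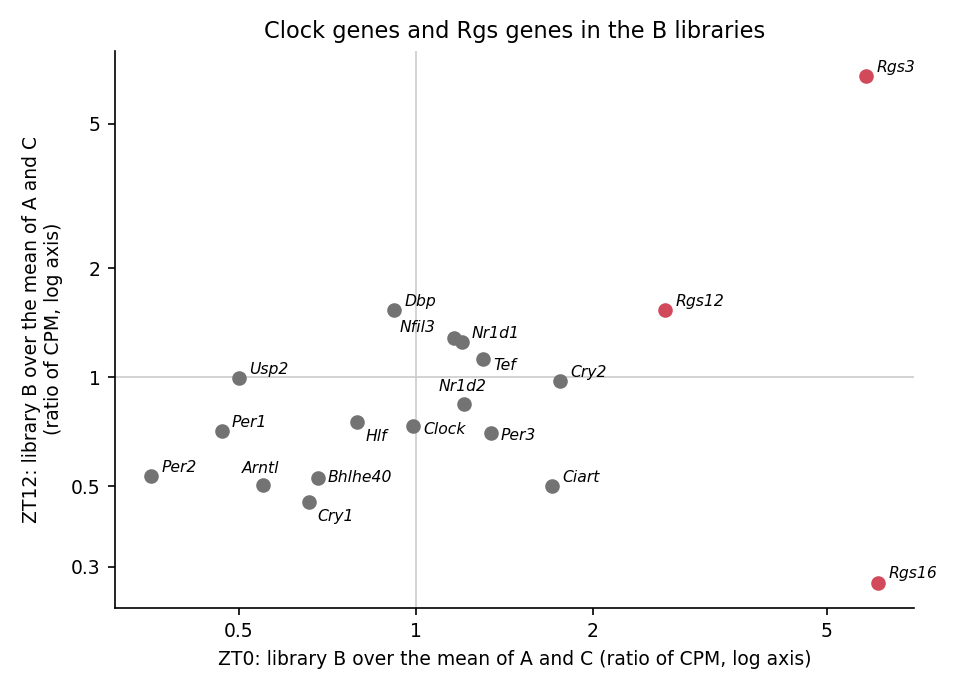
For 16 clock genes (grey) and 3 Rgs genes (red), the level in library B over the mean of libraries A and C at ZT0 (horizontal) and at ZT12 (vertical), as ratios of CPM on log axes, with grey lines at equal levels. Rgs16 lies at the lower right, with 6.11 at ZT0 and 0.272 at ZT12, and Rgs3 at the upper right, with 5.83 and 6.77.

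From cell to cell, Rgs16 was sparse at every time. It was counted in 886 of 18378 cells, with 996 UMIs in all and at most 4 in a cell. At ZT12 the share of cells with an Rgs16 UMI was 19.3% in A (137 of 710 cells), 8.59% in B (212 of 2469) and 18.6% in C (212 of 1139). At ZT6 it was 5.12% in A and 5.14% in B. At ZT0 it was 0.481% in A, 2.73% in B and 0.724% in C, and at ZT18 it was 1.19% in A and 0.336% in B. The libraries hold hepatocytes, so there was no second cell type to measure free RNA in, and the lowest share, 0.336% in ZT18B, is the nearest thing to a background.

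Depth differed between libraries, so each cell was also thinned to 1000 UMIs, which all 18378 cells reached. The thinned shares were 10.8% in A, 3.16% in B and 10.7% in C at ZT12, and 2.56% in A and 3.27% in B at ZT6. At equal depth, library B of ZT12 therefore lay between the ZT6 libraries, while A and C lay above them. At ZT0 the thinned shares were 0.192%, 1.33% and 0.279% in A, B and C, and at ZT18 they were 0.834% and 0.112% in A and B. Cells with an Rgs16 UMI were deeper than cells without one in all 10 libraries, for example with medians of 3209 against 2564 UMIs in ZT12B.

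Cells with 2 or more Rgs16 UMIs were more numerous at ZT12 than an even rate per UMI gives. If every UMI of a library had the same chance of being Rgs16, 19.4 cells of ZT12A, 12.7 of ZT12B and 27.2 of ZT12C would hold 2 or more. The counted numbers were 26, 21 and 38. Conversely, 145, 224 and 228 cells would hold at least 1 at that rate, and 137, 212 and 212 did. At ZT6 the counted cells with 2 or more were 4 in A and 2 in B against 3.78 and 2.16. With a separate rate for each of 8 layers of the lobule the ZT12 values became 19.6, 13.8 and 27.6, which moved them little. These differences were not tested.

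**Figure D3:**
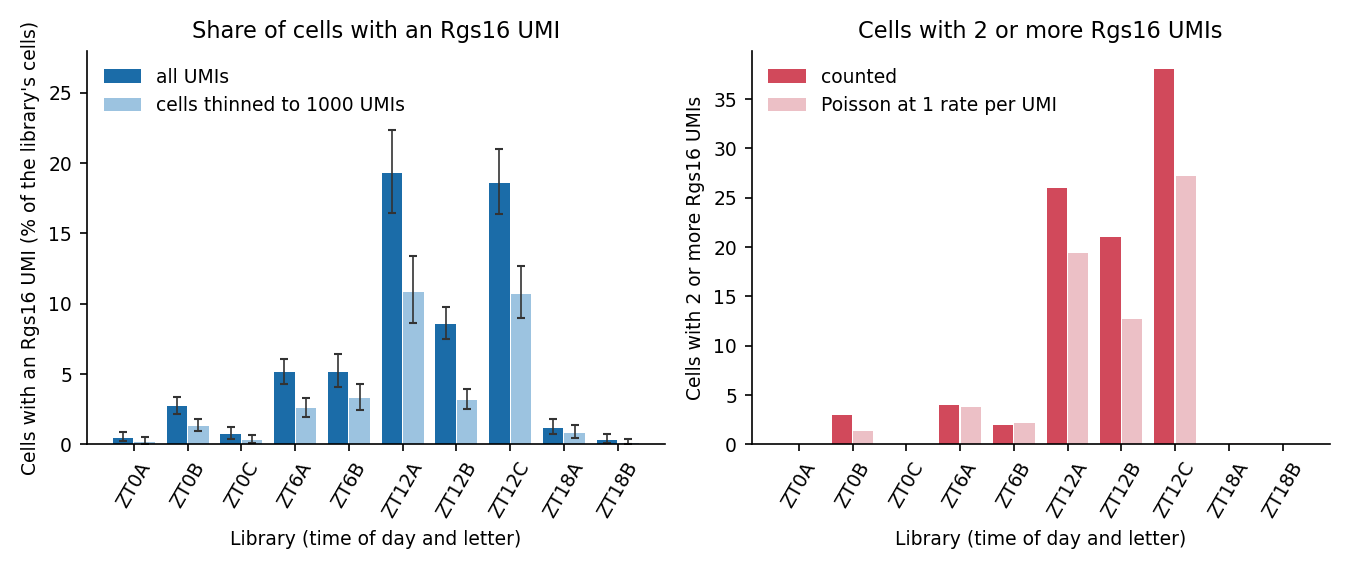
Left, the share of each library's cells with an Rgs16 UMI, with all UMIs (dark) and with every cell thinned to 1000 UMIs (light), with exact 95% binomial intervals. Right, the number of cells with 2 or more Rgs16 UMIs as counted (dark) and under 1 rate per UMI (light). At ZT12 the counted numbers are 26, 21 and 38 against 19.4, 12.7 and 27.2.

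Along the lobule the zone with the highest Rgs16 level varied between libraries, and no zone difference of Rgs16 passed the main tests given below. Cells of each library were ordered by 8 periportal against 8 pericentral landmark genes, which do not include Rgs16, and cut into a pericentral, a midlobular and a periportal zone of equal cell number. The bulk of the counts at ZT12 leaned towards the central vein in A and B and not in C. In ZT12A the level was 146 CPM in the pericentral, 132 in the midlobular and 77.2 in the periportal zone. In ZT12B it was 46.5, 31.4 and 22.2 CPM, and in ZT12C it was 113, 146 and 128 CPM in the same order. The periportal level over the pericentral one was 0.530 in A, 0.479 in B and 1.14 in C.

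At ZT6 the lean was the other way. ZT6A had 23.9 CPM in the pericentral, 20.7 in the midlobular and 33.1 in the periportal zone, and ZT6B had 10.7, 41.1 and 35.9 CPM. The periportal level was 1.39 times the pericentral one in A and 3.35 times in B. Each ZT6 zone rests on 9 to 55 Rgs16 UMIs. At ZT0 the zones of B ran 8.80, 13.9 and 13.7 CPM, and those of A and C held 2 to 6 UMIs each and so say little. At ZT18 library A ran 4.08, 4.87 and 9.38 CPM on 4, 5 and 11 UMIs, and B held 1 to 3 UMIs in each.

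**Figure D4:**
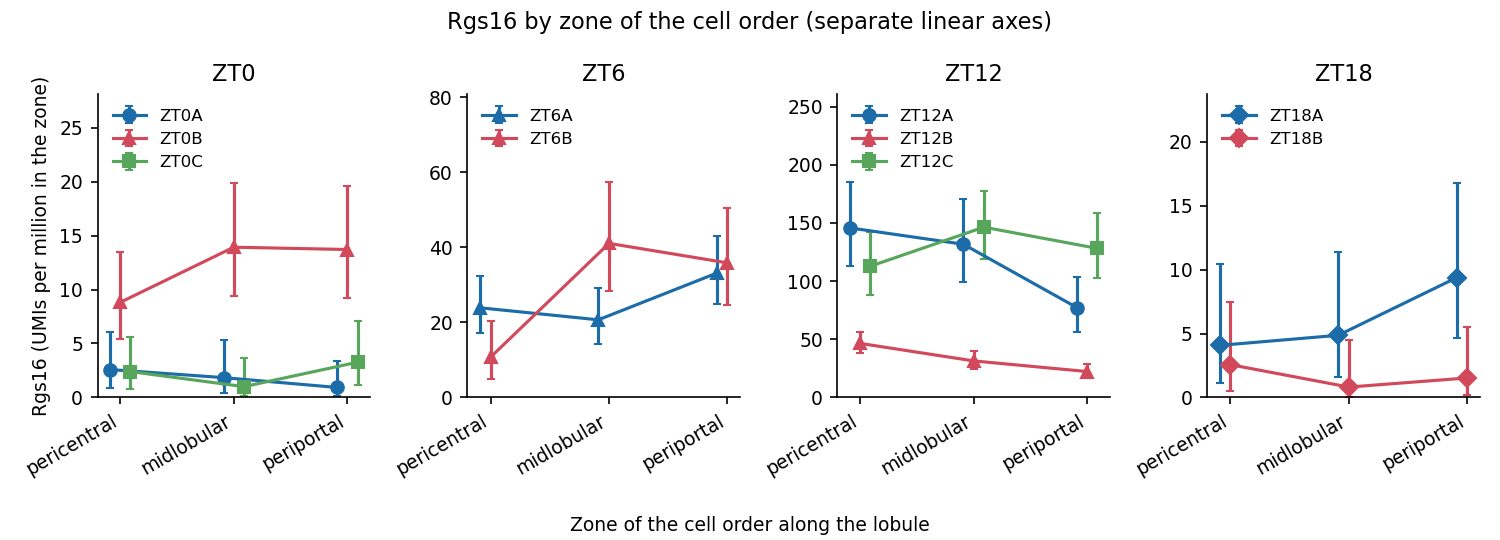
Rgs16 in CPM in the pericentral, midlobular and periportal zone of the cell order for each library, in 1 panel per time with its own linear axis, with exact 95% Poisson intervals as bars. Libraries A and B of ZT12 fall from the pericentral to the periportal zone (146 to 77.2 and 46.5 to 22.2 CPM), ZT12C does not, and both ZT6 libraries are higher in the periportal than in the pericentral zone.

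The same cells were also cut into 8 layers of equal number. At ZT12 Rgs16 averaged 109 ± 59.3 CPM (SD, n = 3) in the layer nearest the central vein and 62.5 ± 46.1 in the layer nearest the portal tract, with the highest mean, 112 ± 77.9, in layer 5. ZT12C went from 107 CPM in layer 1 to 149 in layer 6 and 114 in layer 8, so it did not fall towards the portal tract. At ZT6 the mean was 16.9 ± 5.57 CPM (n = 2) in layer 1 and 30.7 ± 3.57 in layer 8, with the highest, 36.6 ± 25.2, in layer 4. The order itself was steep at ZT12: Glul, the glutamine synthetase of the central rim, was at 4568 CPM in the first layer and 70.1 in the last, and Cdh1, the E-cadherin of portal hepatocytes, at 0 and 86.5 CPM.

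In the test across all genes, Rgs16 passed in neither direction. Over all times its periportal minus pericentral difference was 0.02 ± 0.18 on the log2 scale (SE, 10 libraries with the library as a block), with an adjusted p of 0.967 in edgeR's quasi-likelihood test, in which 24.6% of the 8907 genes tested were called at 0.05. For single times the difference came to 0.50 ± 0.43 (ZT0), 0.95 ± 0.33 (ZT6), -0.47 ± 0.20 (ZT12) and 0.71 ± 0.78 (ZT18). The edgeR adjusted p-values were 0.546, 0.0792, 0.147 and 0.730, where 13.1%, 6.86%, 9.81% and 6.25% of all genes were called. The test of whether the zone difference differed among the 4 times gave an unadjusted p of 0.00347 and an adjusted p of 0.482 in edgeR, with 0.0674% of genes called. A periportal excess over all times was thus not detected at this depth, and a p above the threshold does not show equal levels.

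Single libraries and the gene filter moved these calls. Without ZT12C the ZT12 difference was -0.89 with an edgeR adjusted p of 0.00601, the ZT6 p became 0.0360 and that of the difference among times 0.0428. Without ZT0C the ZT6 edgeR adjusted p was 0.0404. Other libraries moved the values the opposite way: without ZT12B the ZT12 difference was -0.20 (edgeR adjusted p = 0.764), and without ZT6B the ZT6 difference was 0.55 (0.636) and the p of the difference among times 0.954. With every gene of at least 1 UMI kept, rather than those averaging 3 CPM or more, edgeR gave an adjusted p of 0.0142 at ZT6 and 0.0109 for the difference among times. The ZT0 difference turned to -0.15 without ZT0B and the ZT18 one to -0.63 without ZT18A. The ZT6 difference stayed positive and the ZT12 difference negative under all alternatives run.

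**Figure D5:**
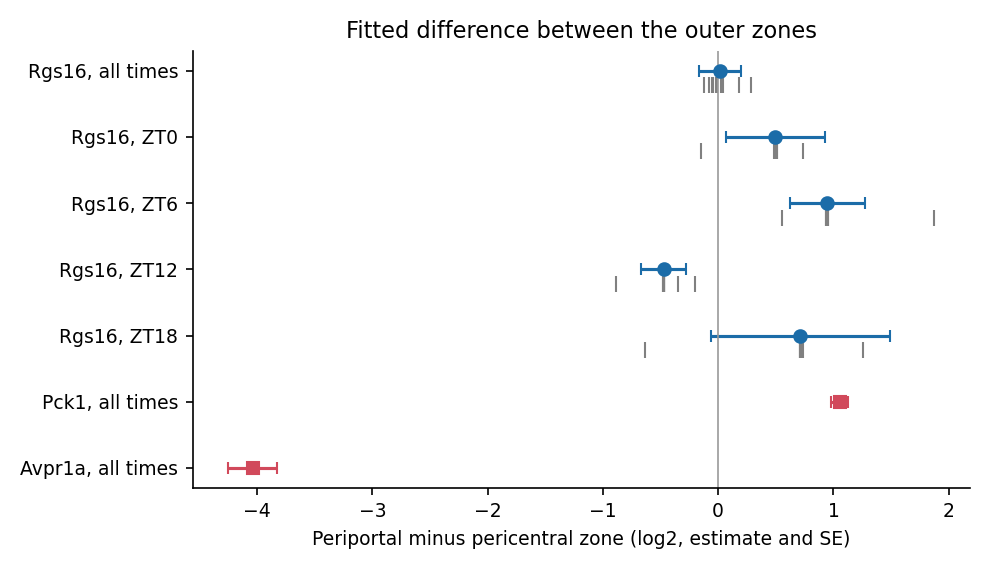
Fitted periportal minus pericentral difference on the log2 scale with its SE for Rgs16 over all times and at each time (blue), with grey ticks for the estimates that leave out 1 library each, and for Pck1 and Avpr1a over all times (red). Rgs16 lies at 0.02 over all times, 0.95 at ZT6 and -0.47 at ZT12, against 1.05 for Pck1 and -4.04 for Avpr1a.

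No gene tested was called between cells with and without an Rgs16 UMI left after thinning in the main comparison. The comparison was made in the midlobular zone, which had the highest mean level of Rgs16 over all libraries. At ZT12 that zone led by a narrow margin (103 ± 62.6 CPM against 102 ± 50.6 in the pericentral zone, n = 3). Cells were thinned to 1000 UMIs and then sorted by whether an Rgs16 UMI remained, and Rgs16 was left out of the sums. Cells whose Rgs16 UMIs were lost in thinning thus count as cells without one. Libraries with at least 20 cells of each kind were used. These were ZT6B, ZT12A, ZT12B and ZT12C, with 23, 28, 20 and 46 Rgs16 cells. Before thinning, 32, 48, 65 and 82 midlobular cells of these libraries held an Rgs16 UMI. Of 631 genes averaging 200 CPM or more, edgeR called 0 (percent called 0), 28 had an unadjusted p under 0.05, and DESeq2 called 0. The lowest edgeR p belonged to Malat1, a nuclear long noncoding RNA, which was 0.42 ± 0.12 higher on the log2 scale in cells with an Rgs16 UMI with an adjusted p of 0.146. Without ZT12A edgeR called 1 gene, which was Malat1 (adjusted p = 0.0449). With so few Rgs16 cells, a missed threshold does not show equal levels. Genes under 200 CPM were left out of the main comparison.

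The genes whose levels over the 10 libraries were most like those of Rgs16 were mixed in kind. Among 8907 other genes averaging 3 CPM or more, 27 had a Pearson r over 0.9 with Rgs16 on log2(CPM + 1) with scaled library totals. This is a description over 10 libraries that share time, index number and depth, and the eleventh gene, Gm15318, had an r of 0.92, so the list has no natural end. In order the 10 closest were Arih2, Fam76a, Epb41, Ppm1a, Cttn, Ciart, Pcbp2, Rnf8, Susd6 and Cpt1a, with r from 0.97 to 0.92. Arih2, a ubiquitin ligase gene, rose from a mean of 17.01 ± 4.06 CPM at ZT0 (SD, n = 3) to 31.3 ± 4.65 at ZT12. Ciart went from 0.431 ± 0.377 to 18.4 ± 6.42 CPM over the same times, with 6.39 ± 2.43 at ZT6 and 1.504 ± 0.984 at ZT18. Cpt1a, the gate enzyme of mitochondrial fatty acid oxidation, stood at 86.3 ± 10.2, 158 ± 14.02, 278 ± 30.8 and 98.2 ± 18.1 CPM at ZT0, ZT6, ZT12 and ZT18. In ZT12B these 10 genes stood at 0.4995 times (Ciart) to 0.923 times (Cpt1a) the mean of ZT12A and ZT12C, and Rgs16 at 0.272 times. The 10 were picked for likeness over libraries that include ZT12B, so the choice itself favours lower levels there. Of the 10, Epb41 passed the zone test (0.29 ± 0.11, edgeR adjusted p = 0.0461).

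Other RGS genes were low in these libraries. Of the 20 listed, 12 had an entry, and Rgs3 and Rgs12 were the members with a mean of at least 3 CPM. The other 10 had means of 0 to 0.781 CPM. Rgs3, at 3.14, 17.5 and 2.87 CPM in A, B and C of ZT0 and 2.75, 16.1 and 2.01 CPM in A, B and C of ZT12, differed more between libraries of 1 time than between the means of these times. It was at 5.69 and 11.6 CPM at ZT6 and at 21.4 and 15.6 at ZT18. Rgs12 ran from 1.22 to 6.70 CPM over the libraries. Neither passed the test among the 4 times (edgeR adjusted p = 0.554 and 0.536), in which 6.58% of 8908 genes were called. In the zone test Rgs3 was higher in the periportal zone by 0.69 ± 0.18 on the log2 scale (edgeR adjusted p = 0.00353), in 9 of 10 libraries. The 10 listed neighbours of Rgs16 on chromosome 1 were taken in equal number from each side by order of start, not by distance. Of these, 4 had an entry, Npl, Rgs8 and Teddm2 among them, with means of 0.0343 to 1.20 CPM.

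Of 7 alpha subunits of the G proteins tested, 1 was called among times, and none of 5 beta and gamma subunits, where 6.58% of all genes were called. Gna12, which is not of the Gi or Gq class, ranged over 34.6 to 37.0 CPM in ZT0 libraries, 42.9 to 47.5 in ZT6, 66.8 to 70.8 in ZT12 and 46.8 to 50.1 in ZT18 libraries, so that ZT12 did not overlap with any other time. It was higher at ZT12 than at ZT0 by 0.80 ± 0.16 (edgeR adjusted p = 0.0140, with 1.74% of genes called higher and 1.7% called lower), and its call among times was lost under 11 alternatives (highest edgeR adjusted p = 0.111). Gnas, the stimulatory subunit, was at 190 to 220 CPM in ZT0 libraries, 226 and 232 in ZT6, 170 to 255 in ZT12 and 336 and 343 in ZT18 libraries. The ZT18 pair thus lay above every other library, although the gene was not called among times (edgeR adjusted p = 0.104). The inhibitory subunits Gnai2 and Gnai3 were not called either. Gnai2 had means of 45.2, 66.2, 60.01 and 59.95 CPM and Gnai3 of 85.4, 71.5, 113 and 77.3 CPM at ZT0, ZT6, ZT12 and ZT18. A missed threshold does not show that these levels were equal. By zone, Gnai2 was higher in the pericentral zone (-0.33 ± 0.09, edgeR adjusted p = 0.00430), as was the gamma subunit Gng5 (-0.22 ± 0.06, edgeR adjusted p = 0.0112), and these were the 2 calls among the 12 subunits tested. With cells thinned to 1000 UMIs the Gnai2 call was lost (edgeR adjusted p = 0.202).

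Receptors that use these G proteins moved in both directions. Of 16 tested, 4 were called among times (Avpr1a, P2ry1, Adora1 and S1pr1), against 6.58% of all genes, and 2 were higher and 3 lower at ZT12 than at ZT0, against 1.74% and 1.7%. P2ry1, a Gq-coupled receptor for ADP, ranged over 2.27 to 4.05 CPM in ZT0 libraries, 4.27 to 5.02 in ZT6, 7.28 to 12.4 in ZT12 and 4.09 to 4.85 in ZT18 libraries. It was higher at ZT12 than at ZT0 by 1.62 ± 0.31 (edgeR adjusted p = 0.00930). Adora1, the Gi-coupled A1 receptor for adenosine, was at 28.4 ± 6.34 CPM at ZT6 (SD, n = 2) and 27.3 ± 8.37 at ZT12 (n = 3) against 10.4 ± 2.71 at ZT0 and 11.2 ± 0.222 at ZT18 (edgeR adjusted p = 0.00951 among times). S1pr1, the Gi-coupled receptor for sphingosine 1-phosphate, fell by 0.89 ± 0.20 from ZT0 to ZT12 and Avpr1a, the vasopressin V1a receptor, by 2.02 ± 0.42 (edgeR adjusted p = 0.0255 and 0.0157). The ZT0 level of Avpr1a rests on library C at 50.8 CPM, with 13.96 in A and 22.4 in B. Adra1b, the alpha-1B adrenergic receptor, named after its values were seen, was also lower at ZT12 (-0.82, edgeR adjusted p = 0.0385). Gcgr, the glucagon receptor, also named after its values were seen, was not called (137 ± 25.3 CPM at ZT0 and 166 ± 15.3 at ZT12, n = 3).

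Avpr1a had the clearest place in the lobule of all listed receptors, with 30.9 CPM near the central vein and 1.59 near the portal tract (-4.04 ± 0.21, edgeR adjusted p = 5.99e-17, lower in the periportal zone in 10 of 10 libraries). In all, 5 of the 16 receptors were called higher in the periportal zone and 3 in the pericentral, where 11.9% and 12.7% of all genes were. Adora1 was periportal by 0.44 ± 0.14 and Gpr146, an orphan receptor linked to blood cholesterol, by 0.25 ± 0.08 (edgeR adjusted p = 0.0234 and 0.0147). These 2 calls were lost under 7 and 4 alternatives, with the highest edgeR adjusted p at 0.123 and 0.162. Among times, the call of S1pr1 was lost under 9 alternatives, that of P2ry1 under 8 and that of Avpr1a under 4, leaving out ZT0C being 1 of these, with the highest edgeR adjusted p at 0.114, 0.0843 and 0.059. Between ZT12 and ZT0 the call of S1pr1 was lost under 10, and those of Adora1 and Avpr1a under 2 each.

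Of 18 effectors tested, 3 were called among times, where 6.58% of all genes were. Pde4b, which breaks down cyclic AMP, was highest at ZT6 at 36.1 ± 7.87 CPM (SD, n = 2) against 14.3 ± 4.55 at ZT0 and 6.19 ± 2.12 at ZT12 (edgeR adjusted p = 0.00211). Adcy9, a cyclase that makes cyclic AMP, was also highest at ZT6, at 18.4 ± 2.06 CPM against 8.73 ± 0.507 at ZT0 (edgeR adjusted p = 0.0384). Rapgef4, the cyclic AMP sensor Epac2, was highest at ZT12 at 229 ± 95.8 CPM against 87.5 ± 21.1 at ZT0 (edgeR adjusted p = 0.0337). The calls of Adcy9 and Rapgef4 among times were lost under 7 alternatives each, with the highest edgeR adjusted p at 0.254 and 0.125. Prkacb, a catalytic subunit of protein kinase A, stood at 38.0 ± 6.57 CPM at ZT0 and 68.9 ± 12.8 at ZT12 and was not called. By zone, Itpr2, a calcium release channel, was periportal by 0.44 ± 0.11, and Prkar2a, a regulatory subunit of protein kinase A, and Pde4b were pericentral by -0.24 ± 0.07 and -0.59 ± 0.15 (edgeR adjusted p = 0.00262, 0.00979 and 0.00367). Another 2 effectors were periportal and 1 pericentral, and the Pde4b zone call was lost with thinned cells (edgeR adjusted p = 0.616).

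Genes of the ChREBP list were mostly not called over time. Mlxipl, which encodes ChREBP and is named after its values were seen, was at 110 ± 29.3 CPM at ZT0 (SD, n = 3) and 87.2 ± 25.7 at ZT12 (edgeR adjusted p among times = 0.480). Of 22 tested, 3 were called among times, against 6.58% of all genes. Slc2a2, the glucose transporter GLUT2, was at 163 ± 25.9, 254 ± 21.2, 443 ± 114 and 175 ± 27.6 CPM at ZT0, ZT6, ZT12 and ZT18, with its highest mean at the same time as Rgs16. Fasn, the fatty acid synthase, was highest at ZT18 at 620 ± 157 CPM, and Elovl6, a fatty acid elongase, stood at 134 ± 39.9 at ZT12 and 143 ± 65.6 at ZT18 against 53.1 ± 14.3 at ZT0. The calls of Fasn and Elovl6 among times were lost under 4 and 3 alternatives. By zone, 13 of 22 were called higher in the periportal zone and 2 in the pericentral, against 11.9% and 12.7% of all genes, and the other 7 were not called. Acaca, the acetyl-CoA carboxylase, was periportal by 0.90 ± 0.08, and Me1, the malic enzyme, was pericentral by -0.77 ± 0.08 (edgeR adjusted p = 3.3e-11 and 5.62e-10).

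Of the fasting genes called, 4 had their highest mean at ZT12, and so did Cpt1a. Of 16 fasting genes tested, 5 were called among times and 4 were higher at ZT12 than at ZT0, with none lower, where 6.58%, 1.74% and 1.7% of all genes were. Pck1, the rate-setting enzyme of gluconeogenesis, was at 744 to 1014 CPM in ZT0 libraries, 1386 to 1881 in ZT6, 2642 to 3566 in ZT12 and 748 to 1034 in ZT18 libraries, with ZT12 above every other library. Lpin1, a phosphatidate phosphatase and coactivator, rose by 3.71 ± 0.27 from ZT0 to ZT12, Foxo1 by 1.28 ± 0.19 and Ppargc1a, a coactivator of fasting genes, by 1.22 ± 0.22 (edgeR adjusted p = 3.98e-06, 0.00153 and 0.00612). Nr4a1, an early response gene, was highest at ZT6 at 36.4 ± 6.403 CPM, a call that was lost without ZT6B (edgeR adjusted p = 0.0543). Of 18 fatty acid oxidation genes, 4 were called among times: Cpt1a (rise of 1.55 ± 0.19 from ZT0 to ZT12, edgeR adjusted p = 0.000517), Ppargc1a, Acads and Ehhadh, of which Ehhadh was highest at ZT18. The calls of Acads and Ehhadh were lost under 9 and 6 alternatives.

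By zone, 9 of the 16 fasting genes and 10 of the 18 oxidation genes were called. Pck1 was periportal by 1.05 ± 0.07, Ppargc1a by 1.73 ± 0.16, Fbp1, another enzyme of gluconeogenesis, by 0.95 ± 0.07 and Tat, a tyrosine aminotransferase, by 0.66 ± 0.06, each in 10 of 10 libraries (edgeR adjusted p = 9.4e-14, 9.56e-11, 1.11e-12 and 2.86e-11). Of the fasting list, 7 of 16 were periportal and 2 pericentral, and of the oxidation list 1 of 18 periportal and 9 pericentral, against 11.9% and 12.7% of all genes. Ppargc1a is in both lists, is the 1 periportal oxidation gene and is counted in both, by zone and among times. G6pc, a periportal gene of the fasting list, is likewise also in the ChREBP list. Cpt1a was not called by zone (0.09 ± 0.07, edgeR adjusted p = 0.45).

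Clock output was the list with the most calls over time, with 14 of 16 called among times, and 9 higher and 3 lower at ZT12 than at ZT0, against 6.58%, 1.74% and 1.7% of all genes. Dbp went from 2.68 ± 0.253 CPM at ZT0 (SD, n = 3) to 118 ± 12.2 at ZT6 (n = 2) and 119 ± 41.1 at ZT12 (n = 3), and Per3, a repressor of the clock, from 2.10 ± 0.396 to 13.8 ± 2.03 and 31.9 ± 7.21. Tef and Nr1d2 were also higher at ZT12 than at ZT0 (2.67 ± 0.20 and 3.32 ± 0.21, edgeR adjusted p = 4.91e-06 and 1.1e-06). The r of Rgs16 over the 10 libraries was 0.82 with Dbp, 0.85 with Per3, 0.73 with Usp2 and 0.93 with Ciart, given as a description since all of these vary with time. By zone, 2 of the 16 were called: Cry1, periportal by 0.59 ± 0.12 (edgeR adjusted p = 0.000353), a call lost with thinned cells (0.218), and Bhlhe40, by 0.23 ± 0.08 (edgeR adjusted p = 0.0304), a call lost under 7 alternatives. Hlf, of the DBP family, was not called (-0.20 ± 0.09).

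Over all lists, 33 of 118 genes tested were called among times, 20 were higher and 8 lower at ZT12 than at ZT0 (6.58%, 1.74% and 1.7% over all genes), and the median difference was 0.18 on the log2 scale against -0.000753 over all genes tested. By zone, 30 of 117 were periportal and 21 pericentral (11.9% and 12.7% over all genes), with a median of 0.03 against -0.01 over all genes. The clock and fasting genes were listed with earlier results of these data known, and nothing is read from these counts about the lists as such.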

How the data were processed

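Hepatocyte RNA was measured in 10 single-cell libraries. The authors deposited whole-number UMI counts per gene and cell, 1 table per library, and per the submitters' processing notes they used Cell Ranger and the builds mm10 and hg19. The annotation and the cell filter are not given in the sources used here, and every cell of the tables had at least 1048 UMIs. No doublets were removed. Files name genes in lower case, and 14321 of 14812 entries matched a symbol. Rgs16, the lists and the tests were chosen with earlier results of these data known. Counts were summed per library, or per library and zone of the cell order, and divided by the total to give CPM. Tests used edgeR 4.0.16 (quasi-likelihood, TMM factors, genes averaging 3 CPM or more) with Benjamini-Hochberg adjustment over all genes, on R 4.3.3, and were tested on simulated data. The minimum of 200 CPM for cells with and without an Rgs16 UMI was set after the simulated data gave false calls at 3 CPM. DESeq2 1.42.0 was an alternative, as were other scalings, filters, landmarks and thinning, and leaving out each library. That levels use plain library totals, with TMM-scaled totals as the alternative, was settled after Rgs16 had been seen. p-values measure the spread between these libraries, which may be technical. The 16 landmarks were left out of zone tests. Named genes are the 10 most like Rgs16, the 4 and 3 with the lowest p among times and between zones in each list, and Rgs genes of at least 3 CPM, and genes named outside this rule were chosen after their values were seen. Same-letter libraries of ZT0 and ZT12 deviated together from their group means (r from 0.24 to 0.49, over genes), so the letters pair these times. The p-values printed for single genes between ZT12 and ZT0 do not use this pairing. At the other times r was -0.04 to 0.11. Some genes that this rule names are not reported here.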

Additional observations from a re-analysis of the deposited data

How the results depend on the processing

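Fewer than 3 libraries at ZT6 and ZT18, sparse counts (6 to 81 Rgs16 UMIs per library at ZT0 and ZT18) and the split between libraries limit what the zone tests can detect. With TMM-scaled totals Rgs16's mean level was 5.58, 27.2, 85.8 and 4.04 CPM at ZT0, ZT6, ZT12 and ZT18. Single libraries decided the low means: leaving out each in turn gave 1.97 (without ZT0B) to 7.12 CPM at ZT0, 26.0 to 29.4 at ZT6, 74.0 to 122 at ZT12 and 1.62 (without ZT18A) to 6.29 at ZT18. The zone difference over all times changed sign with plain library totals (-0.0762), thinned cells (-0.0325), even-numbered landmarks (-0.0623) and the outer 2 of 4 zones (-0.0671), and ran from -0.12 to 0.29 when single libraries were left out. At ZT0 it was -0.16 without both number 7 libraries, an alternative chosen after seeing the data, and -0.15 to 0.74 without single libraries. Without single libraries it was 0.55 to 1.88 at ZT6, -0.89 to -0.20 at ZT12 and -0.63 to 1.26 at ZT18. With all genes of at least 1 UMI it was 0.94 at ZT6 with an edgeR adjusted p of 0.0142, and 0.0109 for the difference between times, which was 0.0428 to 0.954 without single libraries. The cause of these changes was not tested. Listed genes called among times numbered 33, and 20 to 34 without single libraries (20 without ZT6B, 21 without ZT6A). Between zones 51 were called, 32 with thinned cells, of which 31 were among the 51, and 42 to 49 without single libraries. Between ZT12 and ZT0 28 were called and 21 to 29 without single libraries. With all genes of at least 1 UMI edgeR called 101 genes between cells with and without an Rgs16 UMI, and 0 to 1 at the main minimum without single libraries. With the letter as a replicate block, 41 listed genes were called among times, including all 33, and 36 between ZT12 and ZT0, including all 28. The letter effects were shared by all times, although same-letter libraries deviated together only between ZT0 and ZT12. It is therefore not an analysis of the ZT0 and ZT12 pairs alone. The block could not be fitted to the zone tests, which already hold each library as a block. Small differences between ZT12 and ZT0 also changed sign. Rgs12 was at -0.0146 with the letter block and -0.35 to 0.70 without single libraries. Rgs3 was at -0.22 with DESeq2, -0.12 with the letter block, -0.57 without both number 7 libraries and -1.96 to 1.46 without single libraries. Gnas ran from -0.42 to 0.00113 and Gng5 from -0.43 to 0.039 without single libraries. Between zones, thinning turned Gna11 to 0.00454 and Gna12 to 0.00751.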

Other observations

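Grk5, a kinase that switches off activated receptors, was at 3.58 ± 0.758 CPM at ZT0 (SD, n = 3) and 0.354 ± 0.308 at ZT12 (n = 3). It had a mean over all libraries of 1.78 CPM, under the minimum for a test, and is named after its values were seen. Teddm2, a neighbour of Rgs16 on chromosome 1, was at 2.06, 1.54 and 2.51 CPM in A, B and C of ZT12 and at 0.386 to 1.19 CPM elsewhere. Its mean of 1.20 CPM was also under the minimum for a test, and it too is named after its values were seen. The level in ZT12A is that of 3 UMIs.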
